A study of Homo sapiens with 6 samples.

Results

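Transcripts of 9 genes of the kinases that phosphorylate splicing factors, and of their cyclin and kinase relatives, were followed in cells of MDA-MB-231, a line derived from triple-negative breast cancer. The genes are CLK1, CLK2, CLK3 and CLK4, SRPK1 and SRPK2, CCNL1 and CCNL2 (the cyclins L), and DYRK1A. All 16 probe sets that the platform annotation gives to 1 of these genes were used, of 22277 on the array, and each of the 9 genes had at least 1. The dinaciclib group held 3 samples taken 12 h after the drug was added to the medium in DMSO, named F, 4 and 5, and the baseline group held 3 samples taken at 0 h, named E, 4 and 5. Dinaciclib blocks a group of cyclin-dependent kinases that drive the cell cycle and transcription, CDK2 and CDK9 included. The dose is not given in the labels, nor whether baseline cells received DMSO. No sample used here was kept for 12 h without the drug, so drug, time and handling cannot be told apart. The labels do not mention separate cultures, so the p-values rest on a spread between samples that may be technical.

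SR proteins are splicing factors with a tail rich in arginine and serine, and the phosphorylation of that tail sets where they sit in the cell and how they act on pre-mRNA. SRPK kinases phosphorylate the tail mainly in the cytoplasm, which favours import into the nucleus, and CLK kinases phosphorylate it further in the nucleus and release SR proteins from nuclear speckles. Cyclins L carry an arginine- and serine-rich tail themselves and partner the CDK11 kinases, which act in transcription and splicing. DYRK1A is a nuclear kinase of the same wider kinase group, and its targets include splicing factors and a subunit of a complex that represses cell cycle genes.

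Each value is the deposited intensity of a probe set, tested as log2(value + 1) with limma over all probe sets, and a probe set was called at a Benjamini-Hochberg adjusted p under 0.05. Probe sets differ in how well they bind their target, so levels were not ranked between genes. The transcript forms that each probe set reads were not examined here. By the naming of this array type, probe sets whose names end in s_at can match several transcripts and those ending in x_at can also match unrelated ones.

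Median intensities of the arrays lay between 40.6 and 46.8 in dinaciclib samples and between 53.3 and 66.2 in baseline samples, and the median change over all probe sets was -0.21 log2 units, and -0.29 after centring on all spiked controls. The samples named with a letter stood apart on a probe set for the 5-prime end of 18S ribosomal RNA, at 1155 for F and at 8688 and 9061 for the other dinaciclib samples, and at 736 for E and at 8273 and 8642 for the other baseline samples. Values without F and E are therefore given beside each called member. The mesenchymal markers VIM, CD44, LGALS1, CAV1 and AXL, fixed as present in this line, had mean intensities of 3739 to 8878 in dinaciclib and 5114 to 8944 in baseline samples. Of the markers fixed as absent or low, ESR1, PGR, CDH1 and KRT5 lay below the 40th percentile of the arrays in both groups, whereas EPCAM averaged 213 after dinaciclib and 209 at baseline and ERBB2 averaged 74.7 after dinaciclib and 167 at baseline. Of 6 markers of other cell types, 4 were measured (PTPRC, CD3E, COL1A1 and PECAM1), and their summed intensity ranged from 70.3 to 105 in dinaciclib and from 99.7 to 125 in baseline samples. None was at 0, and ERBB2 (-1.17, limma, adjusted p = 0.0152) and PECAM1 (-1.57, limma, adjusted p = 0.0419) were called lower; their part in the results was not tested.

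Of the 16 member probe sets, 5 rose, 1 fell and 10 did not pass the test. That is 31.25% higher and 6.25% lower, where 3.86% of all 22215 tested probe sets were called higher and 13.4% lower. CLK1, CLK3 and DYRK1A rose on their brightest probe sets and CLK2 fell, while CLK4, SRPK1, CCNL1 and CCNL2 had no called probe set. The other 2 rises were dim probe sets of SRPK2 and DYRK1A. The groups did not overlap in 9 member probe sets, 7 higher (43.75%) and 2 lower (12.5%) after dinaciclib, where 10.1% of all probe sets were higher and 26.5% lower without overlap. The median change of the 16 was 0.26 log2 units, against -0.21 over all probe sets. Scaling moved this balance: after median centring 9 member probe sets were called higher and 0 lower (3487 and 1938 of all probe sets), and after quantile normalization 7 and 1 (2130 and 2338). In RNA from whole cultures, fewer cells of a kind and less RNA per cell cannot be told apart. The members were chosen with earlier results of these data known, so these shares describe the set and test nothing about it.

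**Figure D1:**
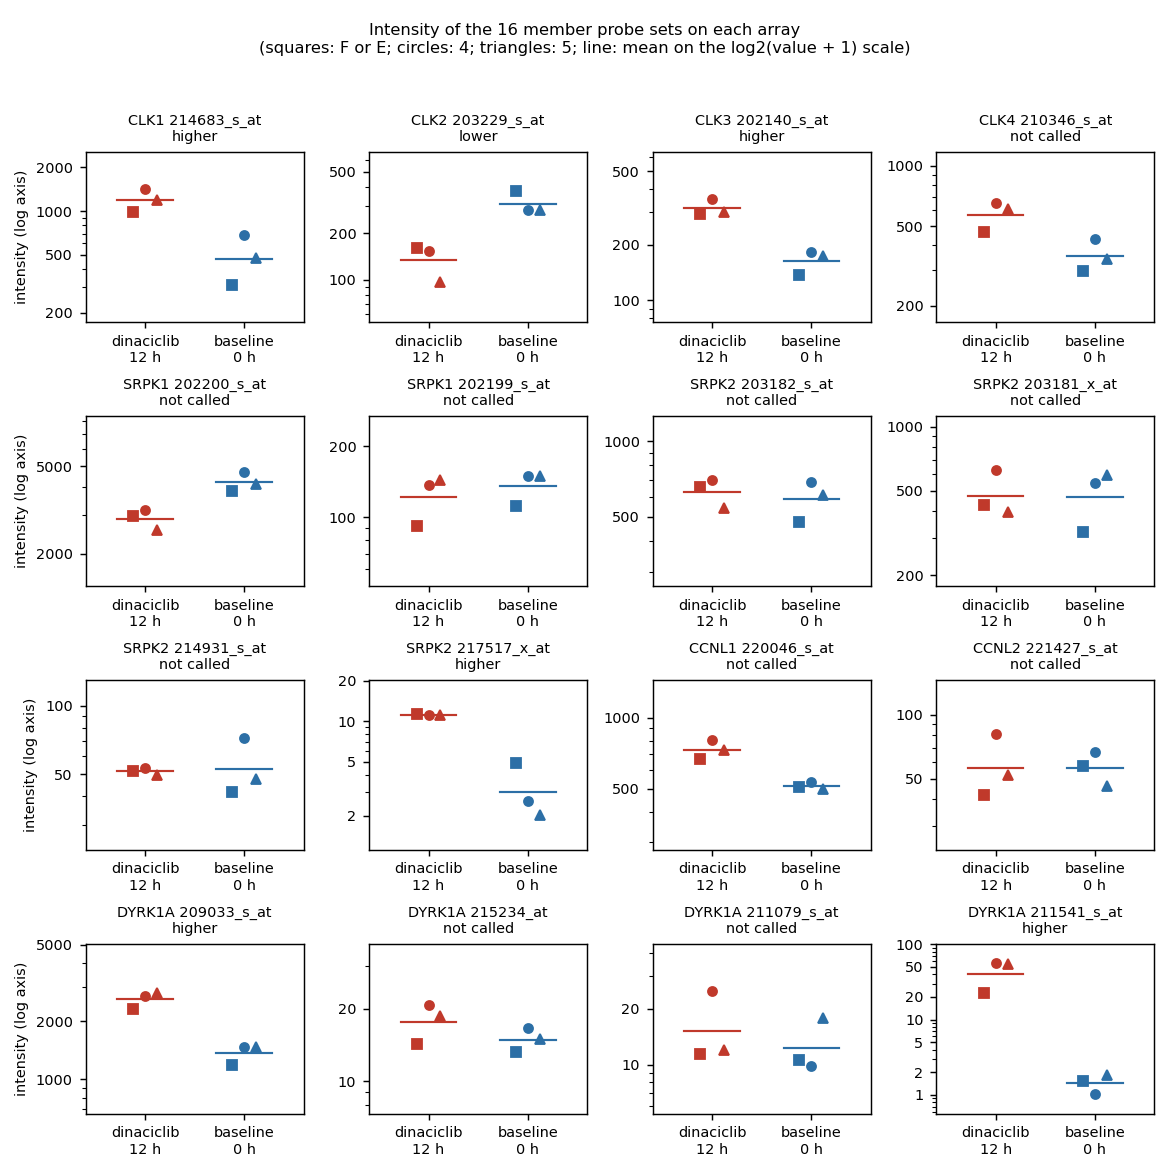
Intensity of the 16 member probe sets on each array (vertical log axis, a scale per panel), with dinaciclib 12 h samples in red on the left and baseline 0 h samples in blue on the right. Squares are F or E, circles 4 and triangles 5, and the line is the group mean on the log2(value + 1) scale. The 2 groups are apart in CLK1 to CLK4, the brighter SRPK1 probe set, CCNL1, the brightest DYRK1A probe set and 2 dim probe sets.

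The CLK kinases, dual-specificity kinases of the nucleus, moved in opposite directions. CLK1, on probe set 214683_s_at, had intensities of 987, 1419 and 1196 in dinaciclib F, 4 and 5, against 312, 685 and 473 in baseline E, 4 and 5. Every dinaciclib sample lay above every baseline sample, and E was the lowest of all. The log2 change was 1.35 with a standard error of 0.33 and a 95% interval of 0.55 to 2.15, a 2.55-fold rise (limma, Benjamini-Hochberg adjusted p = 0.039). Relative to the median probe set it was 1.56. In 4 and 5 alone the change was 1.19 (limma, adjusted p = 0.0806), and F exceeded E by 1.66 log2 units. With 5 samples CLK1 passed without baseline 4 (limma, adjusted p = 0.0417) and missed the threshold without dinaciclib F, 4 or 5 or baseline E or 5, with changes of 1.06 to 1.63 over the 6 fits and a highest adjusted p of 0.114.

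CLK3, a close relative, was read by probe set 202140_s_at, with 292, 355 and 302 in dinaciclib F, 4 and 5, against 137, 184 and 173 in baseline E, 4 and 5. The lowest dinaciclib sample was well above the highest baseline sample. CLK3 rose 1.92-fold, by 0.94 log2 units with a standard error of 0.21 (95% interval 0.44 to 1.45; limma, adjusted p = 0.0282). In 4 and 5 alone the change was 0.87 (limma, adjusted p = 0.0744), and F exceeded E by 1.09. It missed the threshold whichever 1 sample was left out, with changes of 0.82 to 1.03 and adjusted p-values of 0.0542 to 0.0967.

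CLK4, the kinase most like CLK1 in sequence, had 468, 654 and 608 in dinaciclib F, 4 and 5, against 298, 431 and 342 in baseline E, 4 and 5, on probe set 210346_s_at. The groups did not overlap here either, but the change of 0.69 (standard error 0.24, 95% interval 0.12 to 1.27) did not pass (limma, adjusted p = 0.105). It passed after quantile normalization (1.01, adjusted p = 0.00941), median centring (1.14, adjusted p = 0.0103), with letter or number as a covariate (0.69, adjusted p = 0.0423), with log2(value + 16) (0.67, adjusted p = 0.0381), without dim probe sets (0.69, adjusted p = 0.0287) and with trend and robust eBayes (0.69, adjusted p = 0.0281).

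CLK2 was the member that fell. Probe set 203229_s_at had 162, 154 and 96.3 in dinaciclib F, 4 and 5, against 373, 282 and 285 in baseline E, 4 and 5. All 3 dinaciclib values lay below the baseline values, with dinaciclib 5 the lowest. The change of -1.21 (standard error 0.27, 95% interval -1.87 to -0.55) made baseline 2.31-fold brighter than dinaciclib (limma, adjusted p = 0.0305). Without F and E the change was -1.21 (limma, adjusted p = 0.0915). The call held without dinaciclib F (adjusted p = 0.0474) and ended without any one of the other 5 samples, dinaciclib 4 or 5 or baseline E, 4 or 5, where the adjusted p reached 0.0824. It also ended after quantile normalization (-0.77, adjusted p = 0.132) and median centring (-0.76, adjusted p = 0.0998), which kept the direction.

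**Figure D2:**
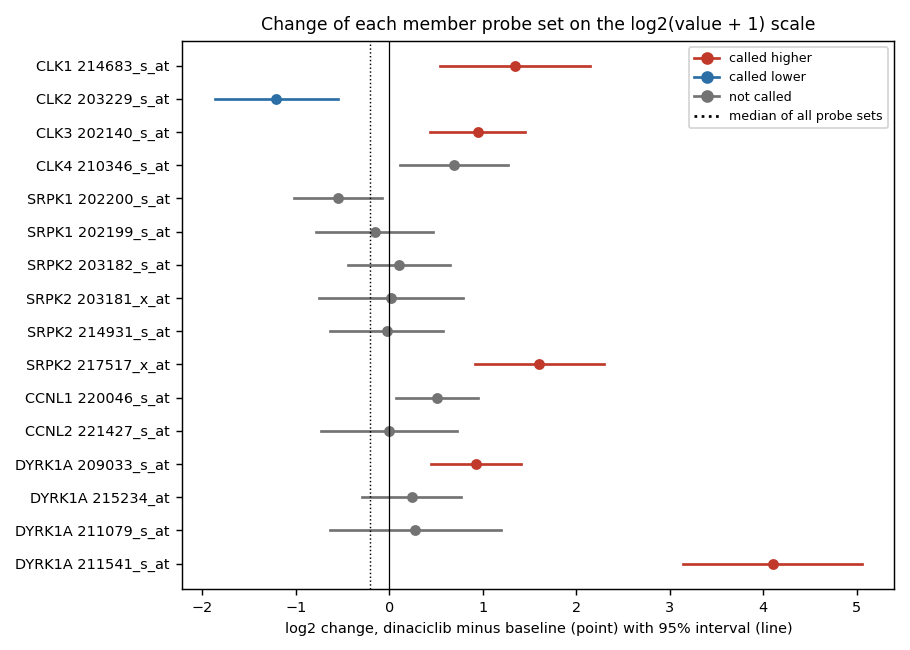
Log2 change of each member probe set, dinaciclib minus baseline (points), with 95% intervals (lines), in red where called higher, blue where called lower and grey where not called. The dotted line is the median of all probe sets, -0.21. CLK1, CLK3 and the brightest DYRK1A probe set lie to the right of 0 and CLK2 lies to the left, at -1.21.

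Promoter sequence is shown for CLK1 and CLK2, which were called in opposite directions, and for CLK4 and CCNL1, whose groups did not overlap. The motif, and with it the 4 genes, was chosen for display after its matches were seen. The letters are the 120 bases before the most upstream start of each gene in RefSeq (GRCh38.p14), 5′ to 3′ on the gene's strand. Capitals mark TGACG or its reverse complement, a short form of the cAMP response element.
CLK1, chr2:200864659-200864778, minus strand: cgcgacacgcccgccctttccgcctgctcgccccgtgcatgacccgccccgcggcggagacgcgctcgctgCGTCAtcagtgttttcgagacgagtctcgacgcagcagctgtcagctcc
CLK2, chr1:155273505-155273624, minus strand: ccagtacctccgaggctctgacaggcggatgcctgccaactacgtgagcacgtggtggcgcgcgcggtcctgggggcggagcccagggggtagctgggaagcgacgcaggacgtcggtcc
CLK4, chr5:178627051-178627170, minus strand: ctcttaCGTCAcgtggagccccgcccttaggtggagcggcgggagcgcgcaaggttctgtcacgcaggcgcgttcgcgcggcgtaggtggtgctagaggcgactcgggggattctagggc
CCNL1, chr3:157160148-157160267, minus strand: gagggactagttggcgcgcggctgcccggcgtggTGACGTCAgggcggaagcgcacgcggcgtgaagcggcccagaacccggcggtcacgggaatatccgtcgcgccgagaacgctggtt

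In the 250 bases before the start, searched on both strands, TGACG was present in 4 of the 9 members (CLK1, CLK4, CCNL1 and CCNL2), and in 21.6% of 27305 genes with a promoter in the table. In CCNL2 the match began 126 bases before the start. CCNL1 alone among the 9 held the whole element TGACGTCA, which contains the short form on both strands and was present in 1.75% of genes. CLK2, which fell, and CLK3 and DYRK1A, which rose, held none. The AP-1 motif TGANTCA was in 0 of the 9 promoters and 6.57% of genes, and the SP1 motif GGGCGG was in 6 of the 9 (CLK1, CLK2, CLK4, SRPK1, CCNL1 and CCNL2) and 42.2% of genes. In all, 10 motifs were searched. These are matches of letters, not binding sites, and 4 of the 9 genes have further starts that were not searched.

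SRPK1, an SR protein kinase found mainly in the cytoplasm, did not pass on either probe set. It had 2970, 3157 and 2571 in dinaciclib F, 4 and 5, against 3866, 4703 and 4143 in baseline E, 4 and 5, on probe set 202200_s_at. The groups did not overlap, with dinaciclib lower, yet the change of -0.55 (standard error 0.19, 95% interval -1.02 to -0.08) did not pass (limma, adjusted p = 0.112). It passed after quantile normalization (-0.66, adjusted p = 0.0303), with log2(value + 16) (-0.55, adjusted p = 0.0336), without dim probe sets (-0.55, adjusted p = 0.0415), with trend and robust eBayes (-0.55, adjusted p = 0.0205) and on hybridization controls alone (-0.65, adjusted p = 0.0361), and after median centring it shrank to -0.10 (adjusted p = 0.63). The second SRPK1 probe set, 202199_s_at, had 91.7, 137 and 144 after dinaciclib and 112, 150 and 150 at baseline, with overlap and a change of -0.16 (95% interval -0.78 to 0.47). Within arrays, the difference between both SRPK1 probe sets changed by 0.39 (95% interval -0.26 to 1.04; limma, adjusted p = 0.488).

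SRPK2, which phosphorylates the same kind of tail, did not pass on its 3 brighter probe sets. The brightest, 203182_s_at, had 654, 701 and 544 in dinaciclib F, 4 and 5, against 477, 689 and 611 in baseline E, 4 and 5, and its change was 0.10 (95% interval -0.44 to 0.65; limma, adjusted p = 0.811). After median centring it was 0.56 and passed (limma, adjusted p = 0.0403). Those of 203181_x_at and 214931_s_at were 0.01 (95% interval -0.76 to 0.78) and -0.03 (95% interval -0.64 to 0.58). With intervals this wide, equal levels were not shown. The dimmest, 217517_x_at, had 11.3, 11.1 and 11.1 in dinaciclib F, 4 and 5, against 4.89, 2.59 and 2.01 in baseline E, 4 and 5, and was called higher. By its name, this probe set can also match unrelated transcripts. Its change of 1.61 (standard error 0.29; limma, adjusted p = 0.0147) shrank to 0.51 with log2(value + 16), still called (adjusted p = 0.0274). It lay at the 28.6th percentile of its arrays after dinaciclib and the 11.7th at baseline. The call ended without baseline 4 (adjusted p = 0.0595) or baseline 5 (0.0527) and with eBayes fitted with a trend and robustly (0.0658), and in 4 and 5 alone the change was 1.88 (limma, adjusted p = 0.0367). Relative to the brightest SRPK2 probe set on the same array the 95% interval of its change was 0.50 to 2.50, which did not pass (limma, adjusted p = 0.092).

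Neither cyclin L was called. CCNL1, on probe set 220046_s_at, had 668, 803 and 728 in dinaciclib F, 4 and 5, against 508, 537 and 499 in baseline E, 4 and 5. The groups were apart and the baseline values lay close together, and the change of 0.51 (standard error 0.18, 95% interval 0.07 to 0.94) did not pass (limma, adjusted p = 0.115). It passed after quantile normalization (0.74, adjusted p = 0.0225), median centring (0.96, adjusted p = 0.00951), with log2(value + 16) (0.49, adjusted p = 0.0342) and without dim probe sets (0.51, adjusted p = 0.0474). CCNL2, on probe set 221427_s_at, had 41.8, 80.9 and 52.2 in dinaciclib F, 4 and 5, against 57.5, 67 and 46.4 in baseline E, 4 and 5. These values overlapped, and dinaciclib held both the highest and the lowest. The change was -0.01 (95% interval -0.73 to 0.72; limma, adjusted p = 0.994).

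DYRK1A rose on the brightest of its 4 probe sets, 209033_s_at, which had 2320, 2709 and 2812 in dinaciclib F, 4 and 5, against 1189, 1464 and 1468 in baseline E, 4 and 5. Each dinaciclib sample was above each baseline sample. The change of 0.93 (standard error 0.20, 95% interval 0.45 to 1.41) was a 1.91-fold rise (limma, adjusted p = 0.0255). In 4 and 5 alone it was 0.91 (limma, adjusted p = 0.0582), and F exceeded E by 0.96. The call held without dinaciclib F (adjusted p = 0.0474) and ended without dinaciclib 4 or 5 or baseline E, 4 or 5, with changes of 0.83 to 1.01 over the 6 fits and a highest adjusted p of 0.0862.

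Probe set 211541_s_at of DYRK1A was near the bottom of the baseline arrays. It had 22.2, 56.7 and 53.9 in dinaciclib F, 4 and 5, against 1.55, 1.01 and 1.83 in baseline E, 4 and 5. Its mean rank was the 48.9th percentile of the arrays after dinaciclib and the 5.59th at baseline. On the log2(value + 1) scale the change was 4.10 with a standard error of 0.40 (limma, adjusted p = 0.00368), and with log2(value + 16) it was 1.73 (adjusted p = 0.00193), so its size depends on the value added. It was 4.56 in 4 and 5 alone (limma, adjusted p = 0.0367), and it passed whichever 1 sample was left out, with a highest adjusted p of 0.0232. Within arrays it changed by 3.17 relative to the brightest DYRK1A probe set (95% interval 2.27 to 4.08; limma, adjusted p = 0.00975). That was the only one of 7 such pairs within SRPK1, SRPK2 and DYRK1A to pass, where 5.38% of 7101 pairs over all genes were called higher and 2.86% lower. With log2(value + 16) the pair changed by 0.81 and no longer passed (adjusted p = 0.0523), and it also missed in 4 and 5 alone (3.65, adjusted p = 0.0534).

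The remaining DYRK1A probe sets were dim and not called on the deposited scale. Probe set 215234_at had 14.3, 20.7 and 18.7 after dinaciclib and 13.2, 16.6 and 14.9 at baseline, a change of 0.24 (95% interval -0.29 to 0.77), and passed after median centring (0.69, limma, adjusted p = 0.0372). Probe set 211079_s_at had 11.4, 24.9 and 12 after dinaciclib and 10.5, 9.78 and 17.9 at baseline, a change of 0.28 (95% interval -0.64 to 1.19). In each, the groups overlapped. DYRK1A was thus called on 2 of its 4 probe sets, in the same direction.

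**Figure D3:**
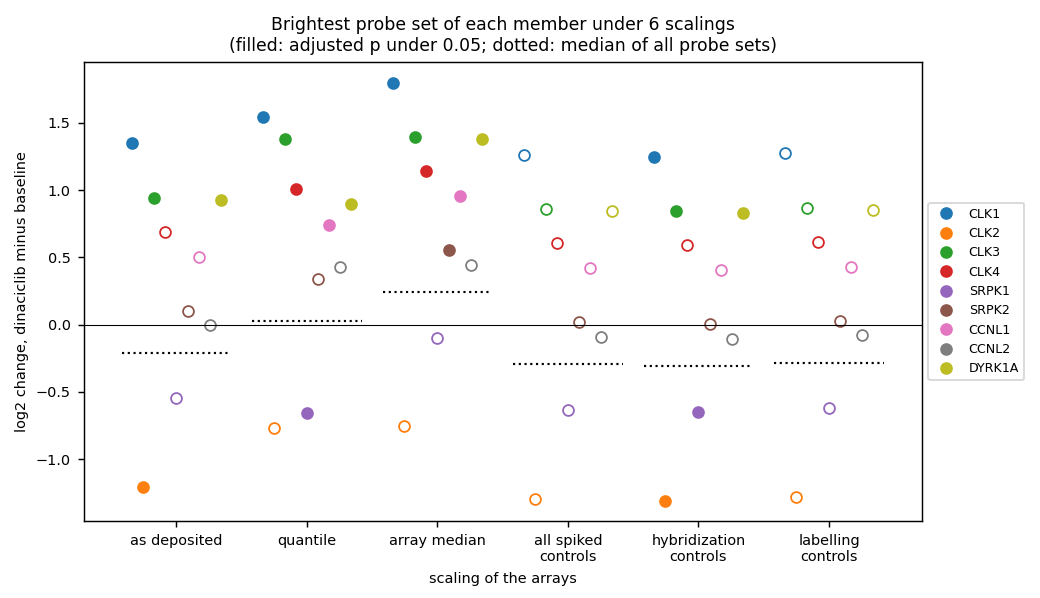
Log2 change of the brightest probe set of each member (vertical axis) under 6 scalings of the arrays (horizontal axis), filled where the adjusted p was under 0.05. Dotted lines are the medians of all probe sets, from -0.31 with hybridization controls to 0.24 with the array median. CLK1, CLK3, CLK4, CCNL1 and DYRK1A stay above 0 and CLK2 and SRPK1 below 0 in each.

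The signs of CLK1, CLK3, CLK4, CCNL1 and DYRK1A (higher) and of CLK2 and SRPK1 (lower) on their brightest probe sets held under each of the 6 scalings, whereas CCNL2 turned positive after quantile normalization (0.43) and median centring (0.45). Centring on all spiked controls or on the labelling controls alone ended 4 calls; with all spiked controls these were CLK1 (1.26, adjusted p = 0.0603), CLK2 (-1.29, adjusted p = 0.0603), CLK3 (0.86, adjusted p = 0.0917) and the brightest DYRK1A probe set (0.84, adjusted p = 0.0723).

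The likeness of other genes to the members was described by the Pearson correlation of log2 values over the 6 samples, among 7778 genes not dim on the arrays. The genes share these arrays and the samples fall into 2 groups, so high values are to be had for any gene that differs between the groups. Each value is also the highest of 7778 over only 6 samples, so high values are to be had for genes not called as well. The nearest to CLK1 was LARP1 (r = 0.999, log2 change 0.56, not called), to CLK3 RAE1 (0.999, log2 change 0.80), to CLK4 MYC (0.998, log2 change 1.12, not called) and to CCNL1 ZNF211 (0.998, log2 change 0.88). DYRK1A was nearest to PLEKHF2 (0.999, log2 change 1.98), CLK2 to XPO7 (0.995, log2 change -1.25) and SRPK1 to CACFD1 (0.9998, log2 change -0.87). For SRPK2 it was SMAD3 (0.982) and for CCNL2 it was ALPG (0.969), neither of which was called.

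Substrates and relatives of these kinases were described on the brightest probe set of each gene, where 3.32% of 11963 genes were called higher and 15.8% lower. Of 14 SR protein genes, 11 were measured, and 0 were higher, 2 lower (18.2%) and 9 not called, with a median change of -0.13, against -0.26 over all genes. SRSF1, the founding SR protein, had 2853, 3058 and 2888 in dinaciclib F, 4 and 5, against 4887, 6245 and 5430 in baseline E, 4 and 5. The groups were well apart, and the change was -0.91 (standard error 0.19; limma, adjusted p = 0.0239), with 2 of its 4 probe sets called lower. SRSF8 fell by 0.91 (standard error 0.23; limma, adjusted p = 0.0429) on 214789_x_at, a kind of probe set that can match other transcripts, and also on 213152_s_at (-0.99, limma, adjusted p = 0.0210). After median centring SRSF1 was -0.45 (limma, adjusted p = 0.0511) and SRSF8 -0.46 (limma, adjusted p = 0.0739), and on all spiked controls both also missed (adjusted p = 0.0506 and 0.0725). With 5 samples both passed only without baseline E (adjusted p = 0.0313 and 0.0301). SRSF3 (-0.45), SRSF6 (-0.43), SRSF7 (-0.13), SRSF5 (0.14), TRA2A (0.24) and TRA2B (0.05), also splicing regulators, did not pass. For 3 genes not called on the brightest probe set, another was called, named after its value was seen. It was 208673_s_at of SRSF3 (-1.08, limma, adjusted p = 0.0263) and 213593_s_at of TRA2A (1.16, limma, adjusted p = 0.0197), each in the direction of its brightest probe set. It was 200685_at of SRSF11 (-0.99, limma, adjusted p = 0.0337), whose brightest changed by 0.04. Differences between the probe sets of these genes were not tested one by one.

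Of 15 related kinases, 11 were measured, and 1 was higher (9.09%), 3 lower (27.3%) and 7 not called, with a median change of -0.07. HIPK3, a nuclear kinase close to the DYRK family, had 261, 264 and 341 in dinaciclib F, 4 and 5, against 62.9, 66 and 51 in baseline E, 4 and 5. It rose by 2.25 log2 units (standard error 0.22; limma, adjusted p = 0.00368), called on 2 of 3 probe sets. HIPK2, its relative, went the other way, with 38.5, 43.6 and 42.2 after dinaciclib and 80.6, 112 and 90.8 at baseline, a change of -1.16 (standard error 0.20; limma, adjusted p = 0.0145). CDK12, which phosphorylates the tail of RNA polymerase II, changed by -2.11 (adjusted p = 0.00856) and CDK10, named after its value was seen, by -1.04 (adjusted p = 0.0272). HIPK3 and CDK12 passed whichever sample was left out. HIPK2 missed without baseline 4 (adjusted p = 0.0535) or baseline 5 (0.0583), and CDK10 passed only without baseline E or dinaciclib 4 (0.0463 and 0.0445). CDK10 also missed after median centring (-0.59, limma, adjusted p = 0.0682) and quantile normalization (-0.56, limma, adjusted p = 0.0774). Of the DYRK relatives, DYRK1B (-1.72), DYRK2 (0.51) and DYRK3 (-0.95) did not pass, nor did CDK13 (-0.04). DYRK1B, which was dim, passed with letter or number as a covariate (limma, adjusted p = 0.0196), and DYRK3 passed under 5 of 16 alternatives. Further probe sets of 2 of the 7 genes not called were called higher, named after their values were seen. DYRK2, on 202968_s_at, had 382, 459 and 342 in dinaciclib F, 4 and 5, against 122, 138 and 141 in baseline E, 4 and 5 (1.55, limma, adjusted p = 0.0063). HIPK1, on 212291_at, had 103, 214 and 166 after dinaciclib and 24.1, 37.2 and 41.9 at baseline (2.17, limma, adjusted p = 0.0113).

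**Figure D4:**
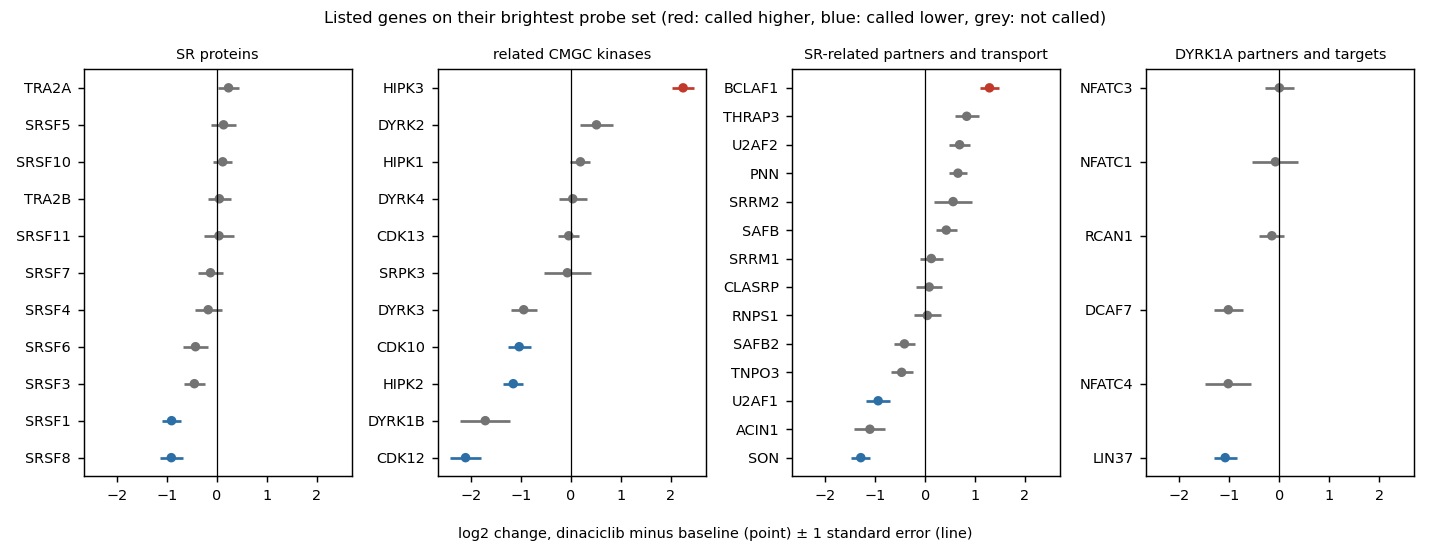
Log2 change, dinaciclib minus baseline, of the listed genes on their brightest probe sets (points) with 1 standard error either side (lines), in 4 panels. Red marks genes called higher, blue called lower and grey not called; HIPK3 (2.25) and BCLAF1 (1.29) are the red points and CDK12 (-2.11) is the lowest blue point.

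Among 14 measured of 15 SR-related partner and transport genes, 1 was higher (7.14%), 2 lower (14.3%) and 11 not called, with a median of 0.10. BCLAF1, an arginine- and serine-rich protein of transcription and mRNA processing, had 5585, 6325 and 6011 in dinaciclib F, 4 and 5, against 2187, 2703 and 2459 in baseline E, 4 and 5. All 4 of its probe sets were called higher, with 1.29 log2 units on the brightest (standard error 0.19; limma, adjusted p = 0.00828). SON, a large scaffold of nuclear speckles, had 1042, 1125 and 1053 after dinaciclib and 2431, 3000 and 2474 at baseline on its brightest probe set, a change of -1.29 (standard error 0.19; limma, adjusted p = 0.00828). Its probe sets disagreed: 2 of the 4 were called lower and 1, 213538_at, higher (1.08, adjusted p = 0.0292). U2AF1, a subunit of the factor that reads the 3′ splice site, fell by 0.94 (adjusted p = 0.0427), and with 5 samples it passed only without dinaciclib 5 (adjusted p = 0.0399). After median centring it was -0.49 and missed (limma, adjusted p = 0.203). CLASRP, a CLK4-associating protein (0.08), and TNPO3, the import receptor of SR proteins (-0.47), did not pass.

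Of 10 partner and target genes of DYRK1A, 6 were measured, and 0 were higher, 1 lower (16.7%) and 5 not called, with a median of -0.59. LIN37, a subunit of the same repressor complex as the DYRK1A target LIN52, fell by 1.08 (standard error 0.23; limma, adjusted p = 0.0251), and with 5 samples it passed only without baseline E (adjusted p = 0.0379). It missed after quantile normalization (-0.59, adjusted p = 0.0577) and on all spiked controls (adjusted p = 0.0523). DCAF7, a scaffold that binds DYRK1A, had 301, 436 and 424 in dinaciclib F, 4 and 5, against 546, 923 and 927 in baseline E, 4 and 5, without overlap, and did not pass (-1.02, standard error 0.30; limma, adjusted p = 0.0636). It was called lower under 6 of 16 alternatives, among them letter or number as a covariate (limma, adjusted p = 0.0132). Another DCAF7 probe set, 209592_s_at, lay the other way without overlap, with 216, 219 and 234 after dinaciclib and 150, 180 and 177 at baseline, and did not pass (0.40, limma, adjusted p = 0.203). NFATC3, a target of DYRK1A not called on its brightest probe set, was called higher on 210556_at, named after its value was seen, with 86.9, 76.8 and 73.1 after dinaciclib and 37.9, 29.1 and 34.9 at baseline (limma, adjusted p = 0.0122).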

How the data were processed

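The authors deposited 1 linear intensity per probe set for each of 6 biotin-labelled arrays, 3 per group. The summary method, background correction and scaling are not given in the sources used here. The array medians differ, so values had not been brought to a common median. All columns were mapped by sample. Probe sets were named from the platform annotation and a RefSeq gene table (GRCh38.p14, names only): 19064 had 1 gene, 1043 several and 2108 none named, with 62 controls left out. A probe set with several genes was not named, which leaves out SRSF2 and the CDK11 genes.

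No scaling was applied to the deposited values before log2(value + 1). R 4.3.3 ran limma 3.58.1 (lmFit, then eBayes) with group as the only term and Benjamini-Hochberg adjustment over 22215 probe sets. Fold changes are on that scale, and for dim probe sets their size depends on the value added. Further probe sets of a gene were also set against its brightest on the same array, over 7101 pairs in 4310 genes. Members and lists were chosen with earlier results of these data known. All member probe sets are named, and in each list those past the threshold with the 2 largest changes each way plus a fixed set. The rule also named SRSF2, CDK11B and PRPF4B, which had no probe set of their own. Alternatives are given at the end. Those that centre on 1 kind of control were chosen after seeing the data. No pair of arrays held identical values (0%). On simulated data with 3828 of 22215 probe sets changed, 44.8% were recovered at a log2 change of 1 and 80.1% at 2, with 4.47% of calls false. With 200 changed, 0% were recovered at 1, 53.7% at 2 and 63.6% at 3, with 2.5% of calls false. In a simulation of the probe set pairs, 63.6% of 585 changes of 2 were recovered and 7.46% of calls were false. Plots used Python 3.11.15 and matplotlib 3.10.9. Precision is limited by the number of arrays, 3 per group.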

Additional observations from a re-analysis of the deposited data

How the results depend on the processing

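Of 378 tested values set against an alternative, 281 kept their direction and their side of the threshold, 47 lost the call, 21 gained one and 29 changed sign, and of the 29 none (0) was called as deposited or under the alternative; the cause was not tested. As deposited, 5 member probe sets were called higher and 1 lower, 857 and 2971 of all probe sets, 2 and 8 listed genes, and 1 and 0 probe set differences within member genes. Quantile normalization gave 2130 of all probe sets higher, 5 listed genes higher and 2 differences higher, and turned SRPK1 202199_s_at to 0.33, SRPK2 214931_s_at to 0.42, CCNL2 to 0.43 and the SRPK2 difference 214931_s_at minus 203182_s_at to 0.082. Median centring gave 9 member probe sets higher and 0 lower, 3487 and 1938 of all probe sets, and 11 and 4 listed genes, and turned SRPK1 202199_s_at to 0.29, SRPK2 214931_s_at to 0.42 and CCNL2 to 0.45. Centring on all spiked controls gave 2 member probe sets higher and 0 lower, 520 and 2418 of all probe sets, and 5 listed genes lower. SRPK2 203181_x_at was then -0.072. Centring on hybridization controls alone, a setting chosen after seeing the data, gave 2 member probe sets lower and 4251 of all 22215 lower. SRPK2 203181_x_at was then -0.087. Centring on labelling controls alone, also chosen after seeing the data, gave 2 member probe sets higher and 0 lower (292 and 1542 of all probe sets). SRPK2 203181_x_at was then -0.062. With log2(value + 16), 2 member probe sets were lower, as were 4026 of all 22215. Under that setting 2 differences were lower, 0 differences and 5 listed genes higher, and CCNL2 was 0.0016. Without dim probe sets, 12 member probe sets were left and 2 of them were lower, as were 3997 of all 13329 left. The DYRK1A difference called as deposited was then not tested, its dim probe set being left out, and 0 differences were higher. In that setting 5 listed genes were higher. Trend and robust eBayes gave 2 member probe sets lower, 1291 of all probe sets higher and 4030 lower, and 5 listed genes higher. With letter or number as a covariate, 6 member probe sets were higher and 1 lower, 1186 and 3514 of all probe sets. One probe set per gene gave 3 members and 538 genes and unnamed probe sets higher. The numbered samples alone gave 2 member probe sets higher and 0 lower, 449 and 1721 of all probe sets, 3 listed genes lower and 0 differences higher.

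With a replicate block, in which E and F have levels of their own and 1 residual degree of freedom is left, limma called 0 of all probe sets, members, listed genes and differences in either direction. As in the numbered samples alone, CCNL2 was then 0.22, SRPK2 203181_x_at -0.19 and SRPK2 203182_s_at -0.071. Only 4 and 5 are shared numbers. Deviations from the group means correlated by 0.08 for each and by 0.17 for F with E. Pairs of samples with other combinations of names gave -0.11 to 0.04. The labels do not say whether samples of the same number, or E and F, share a culture or a batch, and this was not tested.

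Leaving out 1 sample at a time gave 1 to 3 member probe sets higher and 0 to 1 lower, 362 to 629 of all probe sets higher and 1245 to 2684 lower, 2 to 10 listed genes lower and 1 to 2 differences higher. The values that changed sign spanned -0.27 to 0.20 for CCNL2, -0.065 to 0.53 for DYRK1A 211079_s_at, -0.30 to 0.046 for SRPK1 202199_s_at, -0.26 to 0.18 for SRPK2 203181_x_at, -0.043 to 0.22 for SRPK2 203182_s_at, -0.19 to 0.20 for SRPK2 214931_s_at and -0.22 to 0.046 for the difference 203181_x_at minus 203182_s_at. Signal near the floor at baseline limits the sizes of SRPK2 217517_x_at and DYRK1A 211541_s_at.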
